A study of Mus musculus with 42 samples.

Results

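The genes described here are 31 genes of cholesterol and fatty acid synthesis, transport and control that the transcription factors of the SREBP family are known to govern or that work beside them. They were listed by name and make up 31 of the 54353 genes counted in every bulk library. They fall into 6 groups by role: 5 enzymes of the mevalonate pathway, 3 enzymes that turn isopentenyl units into squalene, 10 enzymes of the later sterol steps, 4 regulators and transfer proteins, 7 genes of fatty acid synthesis and storage, and 2 efflux pumps. Uterine tissue-resident NK (trNK) cells of C57BL/6 mice were profiled by bulk RNA sequencing in 34 libraries, 2 for each of 17 groups, and by 1 pooled single-cell capture. The study asked how trNK cells change as the uterus prepares for the embryo, and how the cytokine IL-21 acts on them.

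All mice were wild type and 8 to 12 weeks old per the methods. The gestation groups were trNK cells (CD45+NK1.1+NKp46+CD49a+CXCR6-) from virgin uteri and from uteri on gestational day (gd) 6.5 or gd8.5. The subset groups were gd8.5 trNK cells split by the surface proteins CD55 and 4-1BB into low (trNK-V), intermediate (trNK-D) and high (trNK-T). The culture groups started from trNK-V cells of gd6.5 mice, and every culture, controls included, held IL-15. The inhibitor culture ran for 3 days without IL-21, with IL-21 at 20 ng/ml, or with IL-21 and the STAT3 inhibitor Stattic at 1 µM (iSTAT3). The time course was sampled at 0, 6, 24 and 72 h with IL-15 at 10 ng/ml alone or with IL-21 at 20 ng/ml added. The culture groups are models of sorted cells outside the uterus, collected as live NK1.1+ cells in the inhibitor culture. Nothing in the labels says whether 2 libraries of a group came from separate animals, so the p-values measure the spread between these libraries, which may be technical.

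Cells make cholesterol from acetyl-CoA. The mevalonate pathway joins acetyl units and yields isopentenyl diphosphate, which is built up to squalene, and squalene is closed to a ring and trimmed to cholesterol by the later enzymes. When membrane sterol falls, SREBP2 (gene Srebf2) is released from the endoplasmic reticulum and switches on most of these genes, while INSIG1 holds it back. SREBP1 (Srebf1) drives fatty acid synthesis, and the liver X receptors drive the efflux pumps Abca1 and Abcg1 when sterol is abundant. In lymphocytes the pathway is known to rise with activation and growth.

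The promoters are shown for 5 of the 7 sterol genes called in trNK-T against trNK-V below, from the mevalonate pathway (Hmgcs1, Pmvk), the squalene branch (Idi1) and the later steps (Msmo1, Sc5d), chosen after their values were seen. Each line holds the 200 bases before the RefSeq gene start on the GRCm38.p6 build, read 5′ to 3′ on the gene's strand. Capitals mark the SRE core TCACNCCAC, to which SREBP binds, and the CCAAT box, to which NF-Y binds, on either strand (ATTGG is CCAAT on the other strand).
Hmgcs1, chr13:119690151-119690350, plus strand: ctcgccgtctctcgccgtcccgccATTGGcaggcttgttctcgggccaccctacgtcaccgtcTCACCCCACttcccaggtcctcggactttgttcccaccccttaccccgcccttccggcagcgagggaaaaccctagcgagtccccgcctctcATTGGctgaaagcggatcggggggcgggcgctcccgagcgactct
Pmvk, chr3:89454341-89454540, plus strand: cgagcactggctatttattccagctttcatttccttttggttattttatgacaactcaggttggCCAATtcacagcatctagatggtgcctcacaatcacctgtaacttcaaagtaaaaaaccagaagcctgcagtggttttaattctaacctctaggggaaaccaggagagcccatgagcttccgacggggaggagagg
Idi1, chr13:8885406-8885605, plus strand: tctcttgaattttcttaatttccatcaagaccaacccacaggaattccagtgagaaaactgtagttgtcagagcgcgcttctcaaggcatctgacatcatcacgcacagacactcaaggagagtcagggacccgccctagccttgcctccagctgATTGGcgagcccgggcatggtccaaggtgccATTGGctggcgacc
Msmo1, chr8:64733579-64733778, minus strand: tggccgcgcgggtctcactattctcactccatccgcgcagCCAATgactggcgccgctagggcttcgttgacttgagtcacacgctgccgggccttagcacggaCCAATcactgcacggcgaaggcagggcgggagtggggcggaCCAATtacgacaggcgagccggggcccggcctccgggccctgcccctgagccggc
Sc5d, chr9:42264301-42264500, minus strand: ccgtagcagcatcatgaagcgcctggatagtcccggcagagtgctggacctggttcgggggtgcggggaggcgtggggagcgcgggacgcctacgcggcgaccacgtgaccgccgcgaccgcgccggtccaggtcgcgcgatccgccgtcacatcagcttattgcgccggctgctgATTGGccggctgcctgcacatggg

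Hmgcs1 held 1 SRE core and 2 CCAAT boxes in its window, Pmvk held 1 CCAAT box, Idi1 2, Msmo1 3 and Sc5d 1. A window from 250 bases before to 50 after the start was available for 23 of the 31 genes. In those windows CCAAT was found, on either strand, in 19 of 23 genes (82.61%), against 41.06% of the 27025 genes with a window. The GC box GGGCGG was found in 19 of 23, against 38.2%, the E-box CACGTG in 5 of 23 (21.74%), against 8.09%, and the exact SRE core in 1 of 23, Hmgcs1, against 1.44%. None of the 4 motifs contains another. Base composition was not matched between the lists, and these shares describe the letters of the windows only.

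The level of each gene is given as RPKM, reads scaled by exon length and by the library's total, so that genes of different length can be compared. Libraries held 16421542 to 22932483 counted reads in the gestation experiment, 11861343 to 20785186 in the subsets, 12189258 to 29536127 in the inhibitor culture and 28539465 to 66462748 in the time course. The NK genes Ncr1 and Klrb1c were detected in every group. In the virgin group the libraries stood apart, with a summed RPKM of the 9 terminal trNK markers of 149 and 1666. The deposited counts of the first virgin library list 55573 genes, against 54446 in each other bulk library. The part of this in the virgin spread, and in the comparisons with virgin, was not tested. In the gestation experiment erythrocyte genes were high in 1 virgin library (summed RPKM 222) and 1 gd8.5 library (840). The 72 h libraries without IL-21 had 13 and 10 of the 31 genes at 0 reads. A gene entered a test when its RPKM was above 10 in both libraries of any group of its experiment, which 17 of the 31 genes did in the gestation experiment, 17 in the subsets, 11 in the inhibitor culture and 10 in the time course. The genes left out of the tests had RPKM from 0 to 16.4, 0 to 15.0, 0 to 21.2 and 0 to 11.3 in the same order. A gene that entered through 1 group where it was high was more likely to differ, so the tested genes do not stand for all 31. Acat2, Sqle, Cyp51, Srebf1 and Srebf2 passed through gd6.5 alone, Acat2, Cyp51, Srebf2, Stard4 and Scd2 through trNK-T alone, Idi1 in the inhibitor culture through IL-21 alone and Nsdhl there through no IL-21 alone, and Insig1 through 6 h with IL-21 alone. A gene was called at an adjusted p below 0.05 (edgeR quasi-likelihood test, Benjamini-Hochberg over all genes tested) and a fold change above 2.

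In the gd8.5 subsets, the summed level of the sterol synthesis genes stood lowest in trNK-V and highest in trNK-T, an order that 12 of the 18 genes followed without overlap. The summed RPKM of the 18 sterol synthesis genes, from Acat2 to Dhcr7 along the pathway, was 152 and 127 in trNK-V, 199 and 224 in trNK-D and 318 and 429 in trNK-T. The ranges did not overlap between any 2 subsets. Of the 31 genes, 13 had levels that rose from trNK-V over trNK-D to trNK-T with no overlap between libraries, and 0 fell in that way. Dhcr7, the last enzyme of cholesterol synthesis, did not follow, at 2.28 and 4.92 RPKM in trNK-V, 1.74 and 1.69 in trNK-D and 2.53 and 2.93 in trNK-T. The rising genes were Hmgcs1, Pmvk, Mvd, Idi1, Fdft1, Sqle, Cyp51, Tm7sf2, Msmo1, Hsd17b7, Ebp, Sc5d and Scd2, of which 10 were among the 17 tested genes. Among all 4683 genes tested, 14% rose and 14.9% fell in this way. Of the rising tested genes, Cyp51 and Scd2 had passed the filter through trNK-T alone, where they were high.

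**Figure D1:**
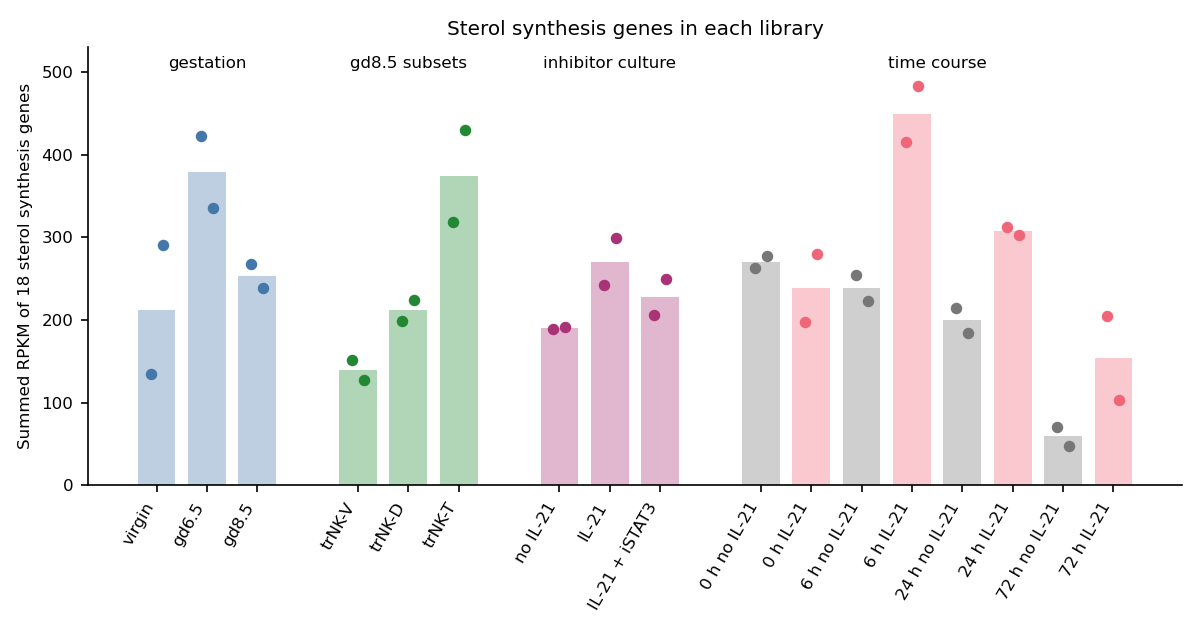
Summed RPKM (vertical axis) of the 18 sterol synthesis genes in each of the 34 libraries. Points are libraries and bars are the means of 2 libraries; the 4 experiments were made separately. The trNK-T libraries (318 and 429) sit above both other subsets, and the IL-21 libraries at 6 h (415 and 483) are the highest of the time course.

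In trNK-T against trNK-V, 9 of the 17 tested genes were called, 8 higher and Abcg1 lower, where 21.2% of all genes tested were called, 8.07% higher and 13.1% lower. The median log2 fold change of the 17 genes was 1.65, against -0.02 over all genes tested. Levels were higher in trNK-T without overlap for 13 of the 17 and lower for 2, where 36.5% and 38.3% of all genes tested were. Of the 12 that did not pass the filter through trNK-T alone, 8 were higher and 2 lower. DESeq2 called 10 genes of the list, the same 9 and Srebf2 (1079 over all genes), and limma-voom called 10, the same 9 and Cyp51 (982). The 5 strongest by p belong to the mevalonate, squalene and sterol steps.

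Hmgcs1 makes HMG-CoA, the substrate of the step that commits carbon to sterol, and lies at chr13:119690379-119708260 on the plus strand of GRCm38. Its RPKM was 8.79 and 5.39 in trNK-V, 14.5 and 16.1 in trNK-D and 37.4 and 51.1 in trNK-T, with no overlap. Its log2 fold change in trNK-T against trNK-V was 2.64 ± 0.28 (SE, adjusted p = 0.00297). The gene overlaps the antisense gene Gm48342 over 12.12% of its exon bases, and strand was not stated for the counting.

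Pmvk, which adds the second phosphate to mevalonate, lies at chr3:89454541-89469013 on the plus strand. It stood at 6.73 and 4.41 RPKM in trNK-V, 15.9 and 19.5 in trNK-D and 27.7 and 34.8 in trNK-T. Every trNK-T library was above every other library, and the log2 fold change against trNK-V was 2.49 ± 0.34 (adjusted p = 0.00483).

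Mvd removes carbon dioxide to yield isopentenyl diphosphate. Its RPKM was 5.68 and 2.95 in trNK-V, 10.6 and 13.1 in trNK-D and 20.0 and 34.9 in trNK-T. The rise to trNK-T was 2.67 ± 0.46 on the log2 scale (adjusted p = 0.00864), the largest among the called genes.

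Idi1 interconverts the isopentenyl isomers and lies at chr13:8885501-8892451 on the plus strand. It measured 6.47 and 3.70 RPKM in trNK-V, 10.1 and 11.7 in trNK-D and 18.2 and 25.7 in trNK-T, a log2 fold change of 2.11 ± 0.35 (adjusted p = 0.00804). Of its 50-base exon words, 28.58% occur in another gene, mostly Gm13502, so its counts could be split by the counting.

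Fdft1 joins farnesyl units into squalene. Its RPKM was 10.2 and 6.99 in trNK-V, 12.1 and 15.3 in trNK-D and 27.3 and 32.5 in trNK-T, a log2 fold change of 1.80 ± 0.26 (adjusted p = 0.00538). Fdft1 overlaps Ctsb on the opposite strand over 18.31% of its exon bases. Ctsb itself measured 71.6 and 93.1 RPKM in trNK-V, 87.7 and 96.4 in trNK-D and 74.7 and 69.4 in trNK-T, so trNK-T overlapped with trNK-V for Ctsb.

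Msmo1, a methyl sterol oxidase of the late pathway, lies at chr8:64718139-64733792 on the minus strand. It stood at 8.09 and 8.52 RPKM in trNK-V, 16.5 and 15.8 in trNK-D and 29.3 and 39.3 in trNK-T. It had the smallest adjusted p of the list in trNK-T against trNK-V (log2 fold change 2.05 ± 0.19, adjusted p = 0.00194).

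Sc5d, which puts in the C5 double bond, measured 12.1 and 10.0 RPKM in trNK-V, 19.7 and 22.7 in trNK-D and 27.5 and 41.8 in trNK-T. Its log2 fold change in trNK-T against trNK-V was 1.65 ± 0.24 (adjusted p = 0.00549). Ebp, the sterol isomerase, was the most abundant of the sterol genes in all 6 subset libraries, at 50.6 and 48.6, 57.2 and 54.8, and 61.8 and 73.5 RPKM from trNK-V to trNK-T, and was not called. Cyp51, the lanosterol demethylase, differed between the trNK-V libraries (8.16 and 0.452 RPKM) and stood at 18 and 25.5 in trNK-T, and was not called by edgeR. It was called by limma-voom and, by edgeR, without the first trNK-V library. Squalene epoxidase Sqle did not enter the test, at 0.678 and 0.770 RPKM in trNK-V, 4.82 and 5.14 in trNK-D and 9.51 and 15.0 in trNK-T.

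**Figure D2:**
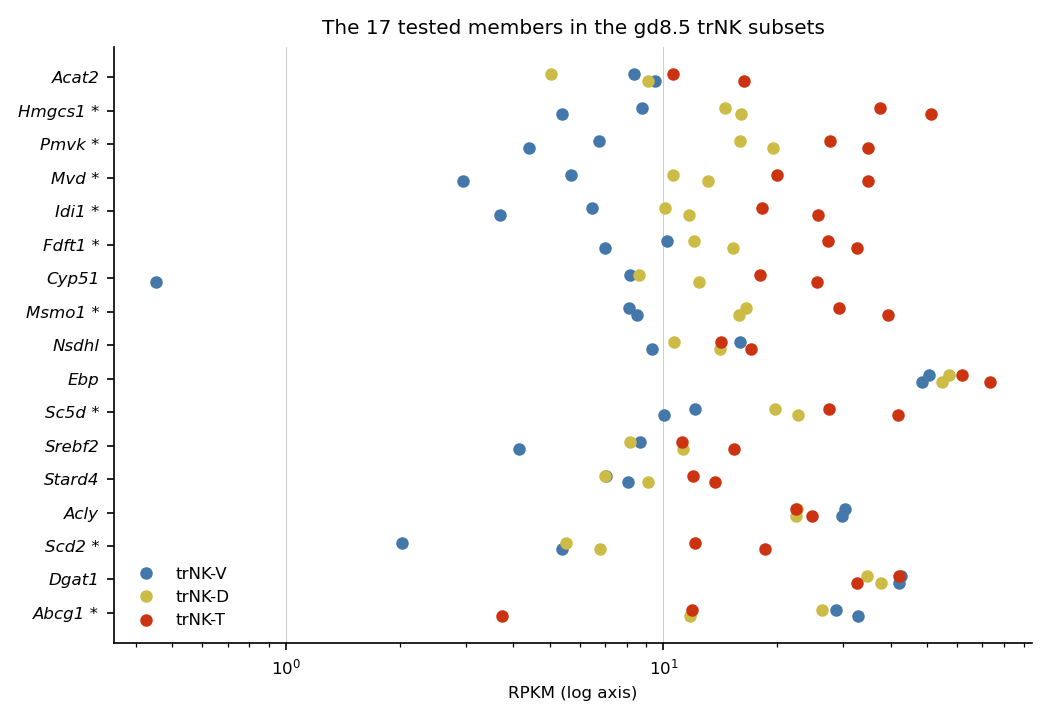
RPKM (log axis) of the 17 tested genes in the 6 libraries of the gd8.5 subsets, 2 points per subset. A star marks the 9 genes called in trNK-T against trNK-V; for Hmgcs1, Pmvk, Mvd, Idi1, Fdft1, Msmo1 and Sc5d the 3 colours are in order without overlap, and Abcg1 runs the other way.

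The fatty acid genes did not move together. Scd2, a stearoyl-CoA desaturase, measured 2.03 and 5.39 RPKM in trNK-V, 5.52 and 6.79 in trNK-D and 12.1 and 18.6 in trNK-T, and rose by 2.04 ± 0.49 on the log2 scale (adjusted p = 0.0225), having passed the filter through trNK-T alone. Acly, which supplies cytosolic acetyl-CoA, was at 30.3 and 29.8 RPKM in trNK-V, 22.6 and 22.4 in trNK-D and 22.4 and 24.8 in trNK-T, and was not called. The summed RPKM of the 7 fatty acid and storage genes was 83.9 and 84.0 in trNK-V, 68.7 and 74.0 in trNK-D and 84.8 and 84.4 in trNK-T. Fasn, Acaca, Elovl6 and Scd1 did not enter the test, and Fasn stood between 1.70 and 4.01 RPKM in all 6 libraries. Among the regulators, Srebf2 had 8.65 and 4.13 RPKM in trNK-V against 11.2 and 15.4 in trNK-T, Srebf1 had 9.75 and 6.27 against 9.72 and 8.25, and edgeR called neither. DESeq2 called Srebf2, as did edgeR without the first trNK-V library. Srebf1 did not enter the test.

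The efflux pump Abcg1 was the 1 gene of the list called lower. Its RPKM was 28.6 and 32.9 in trNK-V, 26.3 and 11.7 in trNK-D and 11.9 and 3.73 in trNK-T, and it fell by 1.97 ± 0.59 on the log2 scale in trNK-T against trNK-V (adjusted p = 0.0413). The Abcg1 call was lost without the first or the second trNK-V library, without the second trNK-T library and with the filterByExpr filter. Macrophage genes (6 markers, summed RPKM) were at 23.7 and 277 in trNK-V, 230 and 316 in trNK-D and 3.98 and 5.16 in trNK-T. In the single cells Abcg1 had 98.8 CPM (UMI counts per cluster, scaled to equal totals) in macrophage-like cells, 67.2 in a cluster led by Cox6a2 with virginal trNK markers and 18.6 and 21.1 in the terminal trNK-like clusters. The part of macrophage RNA in the bulk level of Abcg1, and in the sterol gene levels of the subsets, was not tested. Genes of dividing cells (12 genes, summed RPKM) stood at 302 and 304 in trNK-V, 248.5 and 651 in trNK-D and 496 and 687 in trNK-T. Of the 11 tested, 0 were called in trNK-T against trNK-V by edgeR, 4 with an unadjusted p below 0.05, with a median log2 fold change of 1.01. Their part in the sterol gene levels was not tested.

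Without the second trNK-T library, 5 genes of the list were called in trNK-T against trNK-V, Pmvk, Msmo1, Fdft1, Sc5d and Hmgcs1, where the calls over all genes went from 992 to 416. In trNK-T against trNK-D, 1 gene, Msmo1, was called (log2 fold change 1.07 ± 0.18, adjusted p = 0.0473), where 1.75% of all genes tested were called. Hmgcs1 (1.52 ± 0.27, adjusted p = 0.0505) and Fdft1 (1.12 ± 0.26, adjusted p = 0.0822) came next. Levels were higher in trNK-T without overlap for 13 of 17 genes and lower for 0, where 29.4% and 29.5% of all genes tested were, and for 9 of the 12 that did not pass the filter through trNK-T alone. The Msmo1 call was lost when any 1 of the 4 trNK-T and trNK-D libraries was left out, when only these 4 libraries were fitted and with limma-voom, which called Hmgcs1 instead (61 calls over all genes). DESeq2 called Msmo1, Fdft1, Idi1 and Hmgcs1 (326 over all genes). In trNK-D against trNK-V, 0 of 17 genes were called by edgeR, where 0.32% of all genes were called. By an unadjusted p below 0.05 there were 8 genes (934 of all 4683), DESeq2 called 4 (Pmvk, Mvd, Idi1 and Hmgcs1, of 187 over all genes) and limma-voom 0 (of 32). Levels were higher in trNK-D without overlap for 10 of 17 and lower for 3, where 25.9% and 27.5% of all genes tested were. The smallest p belonged to Msmo1 (0.97 ± 0.19, adjusted p = 0.0979), Pmvk (1.68 ± 0.33, adjusted p = 0.0979) and Hmgcs1 (1.12 ± 0.27, adjusted p = 0.130).

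Among 24 further genes of sterol and fatty acid metabolism listed as a companion set, 13 were tested in the subsets. In trNK-T against trNK-V, Tmem97, a sterol-regulated membrane protein, rose by 2.48 ± 0.34 on the log2 scale (adjusted p = 0.00467), and Lpcat3, which remodels phospholipids, rose by 1.37 ± 0.35 (adjusted p = 0.0267). Mylip, a liver X receptor target that marks lipoprotein receptors for breakdown, fell by 2.49 ± 0.49 (adjusted p = 0.0126). The other 10 were not called.

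Over gestation, 16 of the 18 sterol synthesis genes stood higher in both gd6.5 libraries than in both gd8.5 libraries, where 35.8% of all genes tested did so (6 of the 18 did not enter the test). Tm7sf2 stood lower, Nsdhl overlapped, and the virgin libraries differed from each other. The summed sterol RPKM was 134 and 290 in virgin mice, 422 and 335 at gd6.5, then 267 and 238 at gd8.5. The first virgin library was the lowest of the 6, and the second lay between gd8.5 and gd6.5. Idi1 shows this spread, with 1.74 and 17.5 RPKM in virgin, 28.5 and 23.5 at gd6.5, then 17.6 and 14.5 at gd8.5. Cyp51 was at 2.75 and 21.3 in virgin, 31.9 and 28.1 at gd6.5, then 14.5 and 9.09 at gd8.5.

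In gd6.5 against virgin, 0 of 17 tested genes were called by edgeR, where 6.22% of all genes tested were called. By an unadjusted p below 0.05 there were 4 genes (1470 of all 4504), DESeq2 called 2 (Pmvk and Acly, of 462 over all genes) and limma-voom 1 (Acly, of 352). Of the 17 genes, 15 had a log2 fold change above 0 and the median was 0.94, against -0.01 over all genes. Levels did not overlap and were higher at gd6.5 for 11 of the 17, where 36.4% of all genes tested did so, and lower for 1, where 24.1% did. Of the 12 that did not pass the filter through gd6.5 alone, 6 were higher and 1 lower. Acly had 20.6 and 15.0 RPKM in virgin and 40.8 and 38.1 at gd6.5 (log2 fold change 1.07 ± 0.27, adjusted p = 0.0583). Srebf1 had 8.10 and 6.4996 against 13.6 and 13.2 (0.79 ± 0.21, adjusted p = 0.0622), and Pmvk had 9.29 and 19.4 against 35.9 and 29.4 (1.11 ± 0.37, adjusted p = 0.103). The count changed with the virgin library left out: 2 genes (Acly and Dgat1) were called without the first and 10 without the second, while calls over all genes went from 280 to 454 and 771. Genes of dividing cells moved with this comparison, since 4 of the 11 tested (Mcm3, Mcm2, Mcm5 and Ccnb1) were called higher at gd6.5, and their part in the sterol gene levels was not tested.

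At gd8.5 against virgin, 0 of 17 genes were called by edgeR, DESeq2 or limma-voom, which called 17, 164 and 25 over all genes, with 1 gene at an unadjusted p below 0.05 (630 of all 4504). For edgeR this was 0.377% of all genes. Dgat1, which makes triglyceride for storage, had 43.8 and 126 RPKM in virgin and 33.3 and 38.0 at gd8.5 (log2 fold change -1.32 ± 0.45, adjusted p = 0.292). Pmvk (0.50 ± 0.37, adjusted p = 0.553) and Sqle (0.91 ± 0.69, adjusted p = 0.558) came next. Without overlap 3 of 17 were higher and 1 was lower, where 28.6% and 18.1% of all genes tested were. Without the first virgin library 1 gene (Dgat1) was called (71 over all genes), and without the second 8 were (469 over all genes), fits in which the other virgin library stands alone and is taken to vary like the rest.

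From gd6.5 to gd8.5, the log2 fold changes of all 17 tested genes were below 0, with a median of -0.61 against -0.01 over all genes, and 0 were called by edgeR. By edgeR no gene of any kind was called in this comparison (0% of 4504, with 1062 at an unadjusted p below 0.05), and limma-voom called 0 and DESeq2 221. Of the 17, 3 had an unadjusted p below 0.05, and DESeq2 called 1 (Acly). A fit of only these 4 libraries called 251 genes, Cyp51, Acly and Srebf2 of the list among them. Levels were lower at gd8.5 without overlap for 16 of the 17, where 35.8% of all genes tested were. The 5 genes that passed the filter through gd6.5 alone, Srebf1 and Srebf2 among them, are part of this count, and 11 of the other 12 were lower. Acly had 40.8 and 38.1 RPKM at gd6.5 against 20.1 and 12.6 at gd8.5 (-1.26 ± 0.28, adjusted p = 0.0960). Srebf1 (-0.60 ± 0.21, adjusted p = 0.163) and Srebf2 (-1.22 ± 0.45, adjusted p = 0.172) followed, with Srebf2 at 23.8 and 18.1 RPKM at gd6.5 against 8.57 and 9.25 at gd8.5. Both comparisons with gd6.5 share its libraries. Genes of dividing cells stood at a summed RPKM of 849 and 729 at gd6.5 against 508 and 441 at gd8.5, with 5 of the 11 tested at an unadjusted p below 0.05 and a median log2 fold change of -0.80, and their part in the sterol gene levels was not tested.

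**Figure D3:**
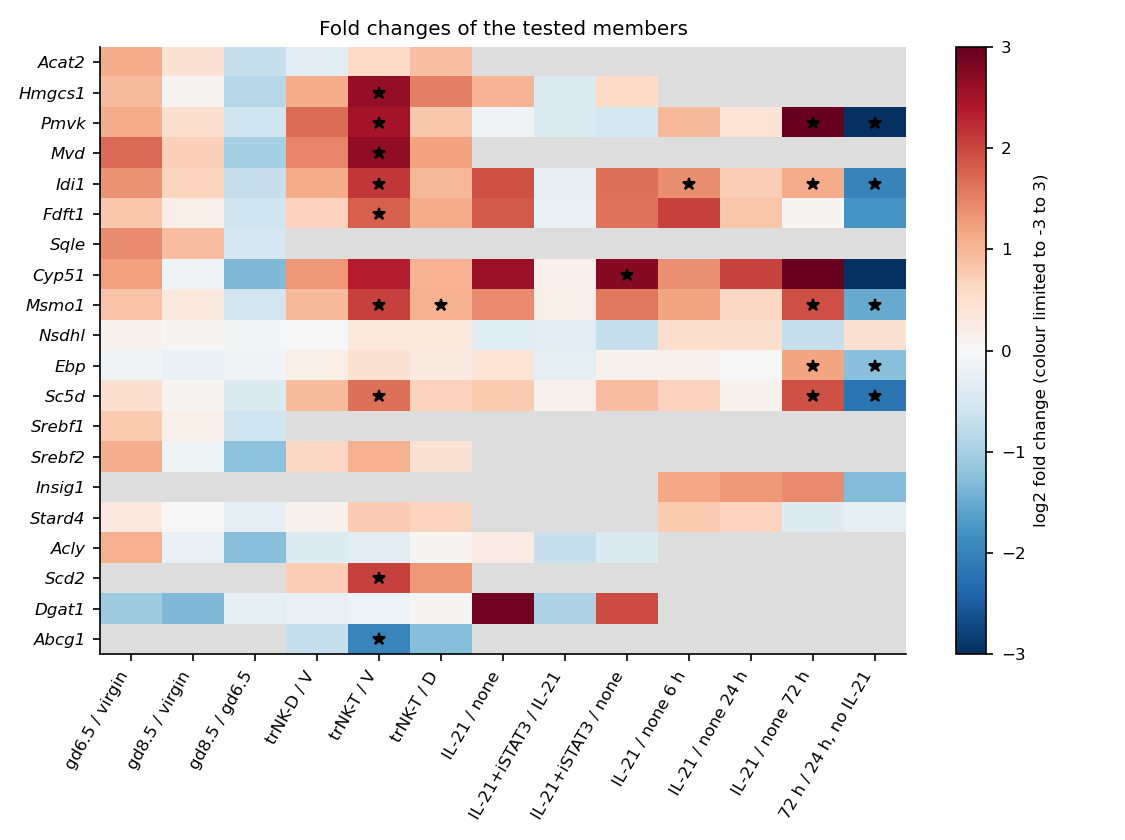
Log2 fold changes (colour, limited to -3 to 3) of the tested genes (rows) in 13 comparisons (columns); stars mark called genes and grey marks genes not tested. The column of trNK-T against trNK-V holds 9 stars, and the fitted colours of Pmvk in the 72 h columns rest on libraries with 0 reads.

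In the time course, IL-21 raised Idi1 within 6 h, and most sterol genes stood higher with IL-21 at 6 and 24 h. Without overlap, 12 of the 18 sterol genes were higher and 0 lower at 6 h. At 24 h, 15 were higher and 1 lower. Among all genes tested, 30.3% were higher at 6 h and 39.8% at 24 h. Many of the 18 did not enter the test. The summed sterol RPKM was 255 and 223 without and 415 and 483 with IL-21 at 6 h, and 215 and 184 against 312 and 303 at 24 h. Neither pair of groups overlapped. At 0 h the groups overlapped, at 262 and 278 without and 197 and 280 with IL-21. Of the 10 tested genes, 0 were lower with IL-21 without overlap at 6, 24 or 72 h, where 28.7%, 27.4% and 16.6% of all genes tested were.

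Of the 10 genes tested at 6 h, all had a log2 fold change above 0, with a median of 1.07 against -0.02 over all genes. Without overlap 8 of the 10 were higher, where 30.3% of all genes tested were. Insig1 passed the filter through 6 h with IL-21 alone, and 7 of the other 9 were higher. 1 gene was called, where 1.97% of all genes tested were. Idi1 had 26.9 and 28.6 RPKM without and 71.1 and 79.5 with IL-21 (log2 fold change 1.40 ± 0.19, adjusted p = 0.00362). Msmo1 had 39.5 and 37.5 against 85.1 and 93.9 (1.18 ± 0.44, adjusted p = 0.271), and Insig1, the SREBP brake that is itself a target, had 6.07 and 5.82 against 12.3 and 14.9 (1.16 ± 0.52, adjusted p = 0.386). Fdft1 stood at 9.72 and 6.13 without and 26.8 and 40.4 with IL-21 (Ctsb at 29.5 and 16.2 against 21.9 and 33.6), and Stard4, which carries cholesterol between membranes, at 13.6 and 12 against 26.1 and 19.3. In a fit without the 72 h libraries, added after seeing the data, 4 genes were called at 6 h (Insig1, Msmo1, Fdft1 and Idi1), where the calls over all genes went from 69 to 187. The Idi1 call was lost without the first 6 h library lacking IL-21 and without either 6 h library with IL-21, each of which left 0 genes of the list called and 19, 0 and 12 over all genes.

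At 24 h, 0 of the 10 genes were called by edgeR, DESeq2 or limma-voom, which called 58, 145 and 57 over all genes, with 2 at an unadjusted p below 0.05 (527 of all 3503). For edgeR this was 1.66% of all genes tested. All 10 had a log2 fold change above 0, and 9 were higher without overlap, where 39.8% of all genes tested were. Idi1 had 31.5 and 28.8 RPKM without and 50.02 and 57.1 with IL-21 (0.73 ± 0.18, adjusted p = 0.0825). Insig1 had 3.02 and 2.29 against 7.48 and 6.59 (1.30 ± 0.52, adjusted p = 0.259), and Cyp51 had 4.30 and 3.03 against 17.8 and 14.1 (2.02 ± 1.11, adjusted p = 0.451). In the fit without the 72 h libraries 2 genes, Cyp51 and Insig1, were called (217 over all genes). The IL-21 effect at 24 h minus that at 6 h was called for 0 of 10 genes by edgeR, where 0% of all genes were called, with 1 gene at an unadjusted p below 0.05 (69 of all 3503) and 0 called by DESeq2 or limma-voom (2 and 0 over all genes). The smallest p belonged to Idi1 (-0.67 ± 0.26), Sc5d (-0.55 ± 0.58) and Msmo1 (-0.57 ± 0.62), each at an adjusted p of 1.00.

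At 72 h the libraries without IL-21 stood far lower. Their summed sterol RPKM was 71.0 and 47.7, against 215 and 184 at 24 h, and the 72 h libraries with IL-21 stood at 205 and 103. The 72 h libraries without IL-21 had reads in 10724 and 11665 genes, against 13340 and 14229 at 24 h. Between the 2 replicates the log2 levels correlated at 0.851, against 0.978 at 24 h. The part of this in the 72 h results was not tested. Genes of dividing cells were at a summed RPKM of 83.6 and 38.2 in the 72 h libraries without IL-21, against 1212 and 1129 at 24 h, and at 247 and 139 with IL-21. In 72 h against 24 h without IL-21, 9 of the 9 tested genes of dividing cells were called lower, and their part in the sterol gene levels was not tested. In bulk libraries, fewer cells of a type and less RNA per cell cannot be told apart.

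In 72 h against 24 h without IL-21, 5 of the 10 tested genes were called, all lower, where 14.8% of all genes tested were called and 9.82% were called lower. Pmvk had 16 and 11.0 RPKM at 24 h and 0 reads in both libraries at 72 h, at least 261-fold lower with a floor of 3 reads per library (adjusted p = 8.17e-06). Idi1 went from 31.5 and 28.8 to 6.65 and 5.28 (log2 fold change -2.0 ± 0.19, adjusted p = 3.65e-05). Ebp went from 68.6 and 55.9 to 27.5 and 14.5 (-1.25 ± 0.24, adjusted p = 0.00552).

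Sc5d went from 25.2 and 24.8 RPKM to 5.18 and 3.57 (-2.18 ± 0.43, adjusted p = 0.00627), and Msmo1 from 40.7 and 25.9 to 15.6 and 3.83 (-1.501 ± 0.45, adjusted p = 0.0406). The Msmo1 call was lost without either 24 h library and without the second 72 h library, which also lost Ebp, while Pmvk, Idi1 and Sc5d were called in all 4 such fits. The calls over all genes went from 518 to 238 and 227 without the first and second 24 h library and to 1144 without the first 72 h library. A fit of only these 4 libraries called 0 genes of the list and 3 over all genes. With the filterByExpr filter 11 genes of the list were called (1143 over all genes), and Msmo1 was not among them. Without overlap 9 of the 10 were lower, where 47.6% of all genes tested were. Nsdhl, a late sterol dehydrogenase, was the exception, at 10.9 and 16 RPKM at 24 h and 12.3 and 16.1 at 72 h. Tmem97 of the companion set fell by 1.91 ± 0.29 on the log2 scale (adjusted p = 0.00134). In the earlier steps without IL-21, edgeR, DESeq2 and limma-voom called 0 of 10 genes in 6 h against 0 h, where 0% of all genes were called (DESeq2 8, limma-voom 0) and 1 gene had an unadjusted p below 0.05 (106 of all 3503). The 3 genes of smallest p were Idi1, which had 42.9 and 45.6 RPKM at 0 h and 26.9 and 28.6 at 6 h (-0.73 ± 0.18, adjusted p = 0.844), Msmo1 (-0.43 ± 0.44, adjusted p = 0.999) and Nsdhl (-0.37 ± 0.43, adjusted p = 0.999). In 24 h against 6 h the same tools called 0, where 0.0856% of all genes were called (DESeq2 13, limma-voom 3) and 0 genes of the list had an unadjusted p below 0.05 (197 of all 3503). Insig1 (-1.03 ± 0.52, adjusted p = 0.912), Stard4 (-0.57 ± 0.39, adjusted p = 0.998) and Idi1 (0.25 ± 0.18, adjusted p = 0.998) had the smallest p there.

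With IL-21 at 72 h, 5 of the 10 genes were called, all higher than without it, where 8.08% of all genes tested were called and 6.57% were called higher. Pmvk had 8.09 and 5.48 RPKM with IL-21 against 0 reads in both libraries without, at least 131-fold higher with the same floor (adjusted p = 3.06e-05). Idi1 had 15.2 and 12.1 against 6.65 and 5.28 (1.12 ± 0.19, adjusted p = 0.00358), and Ebp had 61.8 and 38.1 against 27.5 and 14.5 (1.17 ± 0.24, adjusted p = 0.0126). Sc5d had 29.5 and 7.56 against 5.18 and 3.57 (1.91 ± 0.43, adjusted p = 0.0189).

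Msmo1 had 50.8 and 26.2 RPKM with IL-21 at 72 h against 15.6 and 3.83 without (1.93 ± 0.45, adjusted p = 0.0233). Of the 10 genes 6 were higher without overlap, the 5 called genes among them, where 21.6% of all genes tested were. A fit of only these 4 libraries called 0 genes of the list and 0 of all 3503. With no filter on low values 13 genes of the list were called (1518 over all genes), and Idi1 and Ebp were not among them. Leaving out the second library without IL-21 lost Ebp and Sc5d, and leaving out the first with IL-21 lost Msmo1 and Sc5d. The calls over all genes went from 283 to 907 without the first library lacking IL-21 and to 536 without the second with IL-21. The comparison shares its 72 h libraries without IL-21 with 72 h against 24 h. Of the companion set, Elovl1 (2.67 ± 0.54, adjusted p = 0.0117), a fatty acid elongase, and Tmem97 (1.53 ± 0.29, adjusted p = 0.00806) were called higher, and 4 of 9 tested genes of dividing cells (Mcm3, Ccnb2, Ccnb1 and Rrm2) were too. The part of these in the sterol gene levels was not tested.

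The IL-21 effect at 72 h minus that at 24 h was called for Pmvk alone among the 10 genes (adjusted p = 0.000121), where 4.22% of all genes tested were called. The median of this difference over all genes was 0.16 on the log2 scale. Ebp (1.15 ± 0.34, adjusted p = 0.0812) and Sc5d (1.77 ± 0.59, adjusted p = 0.119) came next. Leaving out any 1 of the 4 libraries of 72 h raised the count from 1 to between 2 and 4, and the calls over all genes from 148 to between 239 and 767. At 0 h, edgeR, DESeq2 and limma-voom called 0 of 10 genes, where 0% of all genes were called by each, and 0 had an unadjusted p below 0.05 (110 of all 3503). Without overlap 0 of 10 were higher and 3 lower, where 13.4% and 19.7% of all genes tested were. The smallest p at 0 h belonged to Ebp (-0.21 ± 0.24), Msmo1 (-0.37 ± 0.44) and Cyp51 (0.70 ± 1.07), each at an adjusted p of 1.00.

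**Figure D4:**
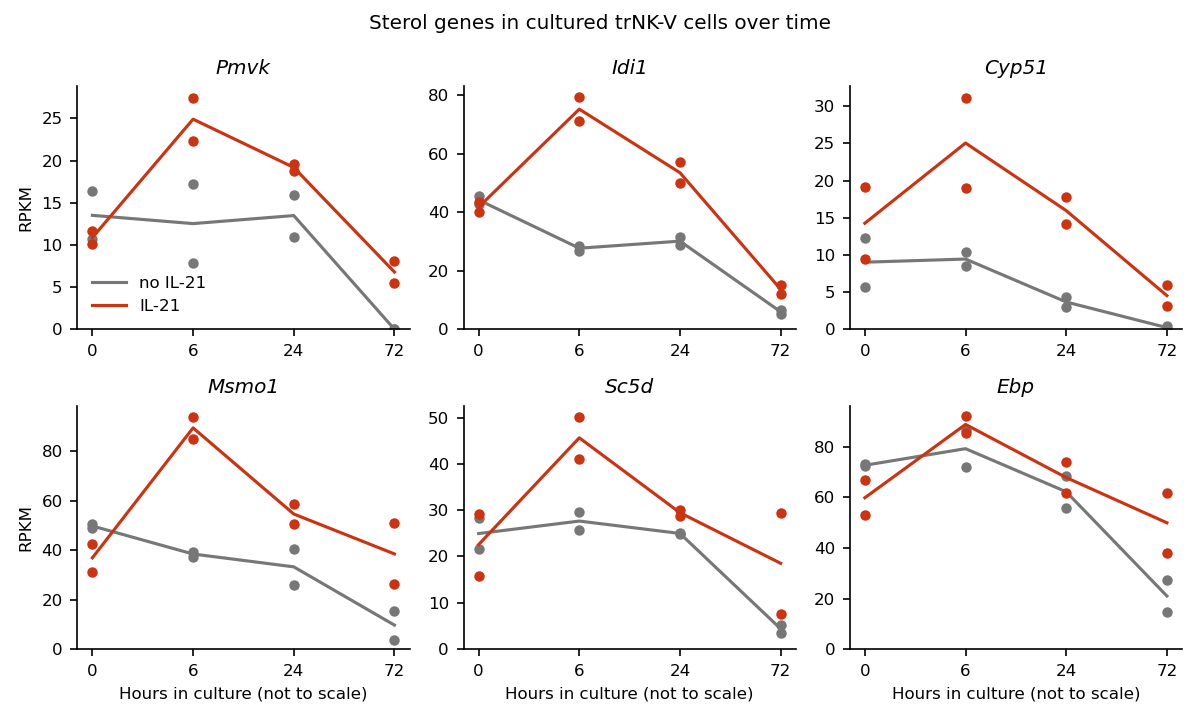
RPKM of 6 sterol genes at 0, 6, 24 and 72 h of culture (horizontal axis, not to scale) without (grey) and with (red) IL-21. Points are libraries and lines join the means of 2; with IL-21 the 6 h level of Idi1 reaches 71.1 and 79.5 RPKM, and without IL-21 Pmvk is at 0 at 72 h.

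In the inhibitor culture, the summed sterol level was higher with IL-21 in both libraries. The main edgeR fit called no gene of the list for IL-21 against no IL-21. The summed sterol RPKM was 189 and 192 without IL-21, 242 and 299 with it and 206 and 248.99 with IL-21 and iSTAT3. In IL-21 against no IL-21, 0 of the 11 tested genes were called by edgeR, where 0.289% of all genes tested were called. By an unadjusted p below 0.05 there were 6 (382 of all 4158), DESeq2 called 5 (Cyp51, Msmo1, Fdft1, Idi1 and Dgat1, of 162 over all genes) and limma-voom 0 (of 18). Levels were higher with IL-21 without overlap for 8 of the 11 and lower for 2, where 10.7% and 30.9% of all genes tested were. Of the 9 that did not pass the filter through 1 group alone, 7 were higher and 1 lower.

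Cyp51 had 3.02 and 2.82 RPKM without and 10.5 and 20.8 with IL-21 (2.59 ± 0.44, adjusted p = 0.0752). Fdft1 had 8.83 and 5.97 against 17.6 and 29.1 (1.83 ± 0.41, adjusted p = 0.123), and Msmo1 had 13.2 and 12.4 against 28.7 and 31.1 (1.41 ± 0.38, adjusted p = 0.204). These levels did not overlap. Ctsb, on the strand opposite Fdft1, had 55.4 and 84.0 RPKM without IL-21, 83.7 and 139 with it and 124 and 92.0 with iSTAT3 added, and its part in the Fdft1 counts was not tested. Without the second library lacking IL-21, 1 gene, Dgat1, was called (8 over all genes). In this culture Pmvk was 20.4 and 17.7 RPKM without IL-21 at 72 h, where the time course had 0 reads, and the 2 experiments were normalised and made apart.

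The inhibitor did not give a called difference. In data simulated for IL-21 against no IL-21 in this culture, 20 of 66 genes changed by 1.5 on the log2 scale were recovered. Of those changed by 2, 44 of 67 were. A lack of calls therefore cannot show that these genes were unchanged. In IL-21 with iSTAT3 against IL-21, 0 of 11 genes were called by edgeR, DESeq2 or limma-voom and 0 had an unadjusted p below 0.05 (824 of all 4158), where edgeR called 2.96% of all genes tested, DESeq2 445 genes and limma-voom 123. Acly had 19.3 and 20.8 RPKM with IL-21 and 13.9 and 9.37 with iSTAT3 added (-0.68 ± 0.34, adjusted p = 0.316), Dgat1 had 50.2 and 93.4 against 41.5 and 27.7 (-0.94 ± 0.77, adjusted p = 0.577), and Hmgcs1 had 15.9 and 19.8 against 14.6 and 10.2 (-0.42 ± 0.44, adjusted p = 0.671). These 3 were among the 5 of 11 genes lower with iSTAT3 without overlap, where 28.9% of all genes tested were. All 5 were among the 9 that did not pass the filter through 1 group alone.

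In IL-21 with iSTAT3 against no IL-21, 1 gene was called, where 4.74% of all genes tested were called. Cyp51 had 16.8 and 15.2 RPKM with iSTAT3 (2.74 ± 0.44, adjusted p = 0.0156). DESeq2 and limma-voom called it too. By edgeR it was not called with a replicate block (55 calls over all genes) or with the filterByExpr filter (21). Msmo1 followed at 21.3 and 41.7 RPKM (1.59 ± 0.39, adjusted p = 0.0618), and Fdft1 at 16.1 and 21.4 (1.64 ± 0.41, adjusted p = 0.0659). Without overlap 6 of 11 were higher and 4 lower than without IL-21, where 16.5% and 39.6% of all genes tested were. Of the 9 that did not pass the filter through 1 group alone, 5 were higher and 3 lower. The Cyp51 call was lost in 3 of the 4 fits that left out 1 library. Without the first library lacking IL-21 0 genes of the list were called (37 over all genes), without the second Dgat1 alone (45), and without the first library with iSTAT3 Msmo1 alone (79). Among genes of dividing cells Ccna2 was called lower with iSTAT3 in both comparisons, and its part in the sterol gene levels was not tested.

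The single-cell matrix held 15175 cells from uterine CD45+NK1.1+NKp46+ sorts of 5 virgin and 2 gd8.5 mice, pooled in 1 capture. The count files used here do not tell which cell came from which mice, so all cells make 1 sample and no test between conditions was made. Of the cells, 8907 were kept with 200 to 2500 genes and under 10% mitochondrial reads. The methods state the limits of 200 and 2500 for UMIs per cell, which would keep 4338 cells here. The limits on genes were used because the number they keep is nearer to the number the study states, which lies between both. Of the 31 genes, 29 and 16 of the 18 sterol synthesis genes were present. Clusters were formed with the 31 genes left out. Cells are not replicates, so the values are descriptions, and intervals (exact Poisson, 95%) cover counting error only.

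The summed sterol level was 815 CPM (788 to 842, 795 cells) in the Scin, Ctsg and Epas1 cluster, 768 (736 to 800.9, 618 cells) in dividing cells and 621 (599 to 643, 1061 cells) in the Gzmc and Gzmf cluster. The first 2 intervals overlap, and their order depends on the clustering: at resolution 0.4 the terminal trNK-like cells form 1 cluster at 709 CPM (692 to 726) and dividing cells stand at 814 (778 to 851). Scin and Ctsg with other terminal trNK markers define the first cluster, and granzymes the third, and both carried the name terminal trNK-like. The cluster of conventional NK-like cells had 322 (297 to 349, 1014 cells), and the cluster led by Cox6a2, with 4 of 5 virginal trNK markers, had 335 (315 to 356, 1098 cells). Cells differed in depth: the median was 5658 UMIs in the Scin cluster and 1722 in conventional NK-like cells. CPM values are scaled for depth.

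Hmgcs1 carried much of the Scin cluster's level. It had 278 CPM there (263 to 295), 94.9 in the Gzmc cluster, 112 in dividing cells and 31.8 in conventional NK-like cells. Idi1 had 155, 80.2, 134 and 29.6 in the same order. Cyp51 was ordered otherwise, at 36.2, 65.8, 90.3 and 16.9, and Ebp at 40.4, 83.2, 115 and 92.6. Sqle (24.2 against 37.9), Msmo1 (50.6 against 72.9), Sc5d (27.4 against 46.2), Nsdhl and Tm7sf2 were also lower in the Scin cluster than in the Gzmc cluster. Acat2, Mvk, Pmvk, Mvd, Fdps, Fdft1 and Lss were higher there. Sc5d, called higher in bulk trNK-T, had 40.1 in the Cox6a2 cluster (33.4 to 47.7), above the Scin cluster (22.7 to 32.8). Stard4 had 141 in the Scin cluster against 33.4 in conventional NK-like cells, and Srebf2 had 108 against 71.5.

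Scd1 and Abca1 stood highest in cells outside the NK lineage. Scd1, the other main desaturase, had 573 CPM in B-like cells (515 to 635) and at most 2.65 in the terminal trNK-like, dividing and conventional NK-like clusters. Abca1 had 147 in macrophage-like and 178 in stromal-like cells and 2.09 in the Scin cluster. It was also found in other NK-like cells, at 19.6 in conventional NK-like cells and 19.6 in the Cox6a2 cluster. In the interferon response cluster, where Ncr1 had 637 CPM, Abca1 had 65.9 (36.9 to 109). B-like cells had a sterol sum of 324, macrophage-like cells 309 and cells of the erythrocyte cluster 150. With no upper limit on genes per cell the erythrocyte cluster stood at 509, above B-like (410) and macrophage-like cells (421).

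**Figure D5:**
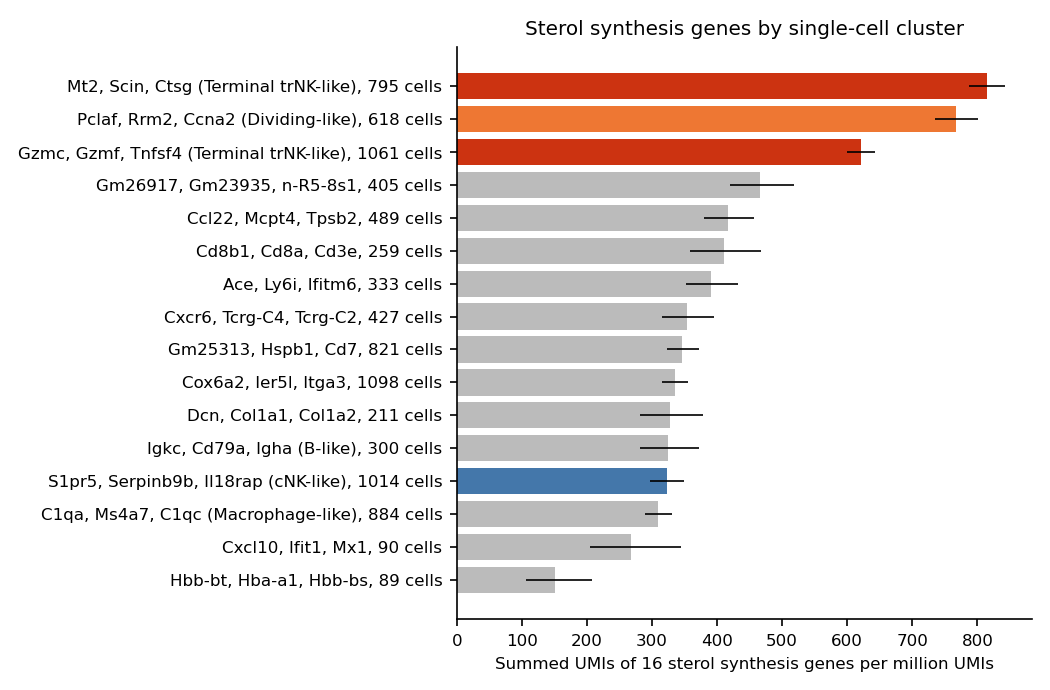
Summed UMIs of 16 sterol synthesis genes as CPM (horizontal axis) in clusters of at least 50 cells, named by 3 leading genes; lines are 95% exact Poisson intervals. The Scin and Ctsg cluster (815), dividing cells (768) and the Gzmc and Gzmf cluster (621) stand above the other clusters.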

How the data were processed

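Bulk RNA sequencing libraries (34, in 4 experiments) and 1 pooled single-cell capture were analysed; the 6 chromatin accessibility samples were not analysed here. Samples were grouped by their labels. The bulk values the authors deposited are raw counts per gene with exon positions and gene length on mm10 (GRCm38). Per the processing notes the reads were aligned with HISAT2 2.1.0, and featureCounts of the Subread package is named there, while the methods name RSEM; whether strand was used is not given in the sources used here. Gestation and subset cDNA was made with the SMART-Seq HT kit per the methods, and the time course with a full-length single-cell amplification kit per the labels. The labels of the time course give IL-15 as 10 ng/ml and its protocol text gives 15 ng/ml. The single-cell values the authors deposited are UMI counts from the BD Rhapsody pipeline on GRCm39, in 2 files that hold the same 15175 cell numbers, with 6821 and 28416 different genes.

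RPKM were computed over the 54353 genes shared by all bulk libraries. The first virgin library, which lists 55573 genes, took the gene lengths given with the second. A gene was tested if both libraries of at least 1 group exceeded 10 RPKM, in 1 fit per experiment (edgeR 4.0.16 quasi-likelihood test, TMM, no covariates, R 4.3.3), with Benjamini-Hochberg adjustment over all genes tested and genes were called where that adjusted p was under 0.05 with more than a 2-fold change. For each comparison, the called genes of the list were printed, or the 3 of smallest p where under 3 were called. DESeq2 1.42.0, limma-voom (limma 3.58.1), other filters and scalings, a replicate block and leaving out each library were alternatives. The fit was tested on simulated data, with 1 comparison per experiment. Of 66 genes changed by 1.5 on the log2 scale it recovered 55 in the gestation experiment and 50 in the subsets. It recovered 20 in the inhibitor culture and 13 in the time course. How far these counts hold for the genes of the list was not tested. Their SE in gd6.5 against virgin ran from 0.19 (Ebp) to 0.88 (Idi1) on the log2 scale. Mvd, at 1.71 ± 0.77, was not called there (edgeR quasi-likelihood test, adjusted p = 0.182). A group with 0 reads was taken as 3 reads per library for a bound on a fold. Replicates of a group differed by more than sampling noise. Reads shared with other genes were estimated as the share of 50-base exon words found in another gene. Motifs were searched on both strands of RefSeq promoter windows (GRCm38.p6).

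Single cells were clustered with scanpy 1.11.5 (2000 variable genes, 20 components, 20 neighbours, resolution 0.8) and named from marker lists where at least 3 markers were 2-fold above the other cells; no doublet caller was run, so doublets remain. The genes, companion lists and alternatives were chosen with earlier results of these data known.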

Additional observations from a re-analysis of the deposited data

Results flagged for a closer look

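One result differed between time points by its own test. The IL-21 effect on Pmvk at 72 h minus that at 24 h had an adjusted p of 0.000121 (edgeR quasi-likelihood test, interaction contrast over 16 time course libraries). Pmvk had 16 and 11.0 RPKM without and 19.6 and 18.8 with IL-21 at 24 h, and 0 reads without against 8.09 and 5.48 RPKM with IL-21 at 72 h. Both 72 h libraries without IL-21 also had low levels of the genes of dividing cells (summed RPKM 83.6 and 38.2) and 13 and 10 of the 31 genes at 0 reads, and their part in the result was not tested. Groups of 2 libraries were too small for the search for single outlying libraries.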

How the results depend on the processing

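The counts of called genes changed with the filter, the tool, the groups fitted and single libraries. They are given here as genes of the list among all genes called. With no filter on low values they were 15 of 919 for gd6.5 against virgin, 1 of 502 for gd8.5 against virgin, 5 of 452 for gd8.5 against gd6.5, 10 of 471 for trNK-D against trNK-V, 15 of 2022 for trNK-T against trNK-V, 8 of 587 for trNK-T against trNK-D, 3 of 146 for IL-21 in the inhibitor culture, 6 of 653 for IL-21 with iSTAT3 against none, 0 of 72, 1 of 69 and 13 of 1518 for IL-21 at 6, 24 and 72 h, 16 of 1829 for 72 h against 24 h and 3 of 840 for the difference of IL-21 effects between 72 and 24 h. With the filterByExpr filter they were 0 of 11 for trNK-T against trNK-D, 0 of 21 for iSTAT3 against none, 0 of 10 and 8 of 755 for IL-21 at 6 and 72 h, 11 of 1143 for 72 h against 24 h and 2 of 361 for the 72 h difference. DESeq2 gave 2 of 462, 1 of 221, 4 of 187 and 4 of 326 for gd6.5 against virgin, gd8.5 against gd6.5, trNK-D against trNK-V and trNK-T against trNK-D, 5 of 162 and 5 of 583 for IL-21 and for IL-21 with iSTAT3 against none, and 3 of 338 for the 72 h difference; limma-voom gave 1 of 352 for gd6.5 against virgin. Fits of only the groups compared gave 3 of 251 for gd8.5 against gd6.5, 0 of 27 for trNK-T against trNK-D, 5 of 250, 2 of 367 and 0 of 0 for IL-21 at 6, 24 and 72 h and 0 of 3 for 72 h against 24 h. Without the 72 h libraries, a fit chosen after seeing the data, IL-21 gave 4 of 187 at 6 h and 2 of 217 at 24 h. Leaving out 1 library at a time gave 0 to 10 for gd6.5 against virgin (0 to 771 over all genes), 0 to 8 for gd8.5 against virgin (0 to 469), 5 to 10 for trNK-T against trNK-V (416 to 855), 0 for trNK-T against trNK-D (1 to 38), 0 to 1 for IL-21 (2 to 17) and for IL-21 with iSTAT3 (37 to 99) against none, 0 to 1 for IL-21 at 6 h (0 to 19), 4 to 6 for IL-21 at 72 h (246 to 907), 4 to 6 for 72 h against 24 h (227 to 1144) and 1 to 4 for the 72 h difference (64 to 767). The causes were not tested. Direction was not kept by every gene in every alternative. For Cyp51 the log2 fold change in gd8.5 against virgin was -0.10 in the main fit. The first virgin library (2.75 RPKM), which stands alone without the second, lay below both gd8.5 libraries (14.5 and 9.09).

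Same-numbered libraries deviated together in some pairs of groups and apart in others (correlations of deviations from the group means -0.31 to 0.10 in the gestation experiment, -0.01 to 0.41 in the subsets, -0.51 to 0.60 in the inhibitor culture and -0.40 to 0.48 in the time course), and in no experiment was every pair above 0.1, so the replicate numbers were not taken to pair the samples. With a replicate block, 0 genes were called for iSTAT3 with IL-21 against none in place of 1, where the calls over all genes went from 197 to 55. The count stayed at 9 in trNK-T against trNK-V and at 1 in trNK-T against trNK-D. In the latter the calls over all genes went from 82 to 142.

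Summed sterol levels in single cells (CPM) moved in terminal trNK-like cells from 711 to 735 with limits on UMIs and to 1032.5 with no upper limit, in dividing cells from 768 to 979 with no upper limit, 814 at resolution 0.4 and 823 with 3000 variable genes, in B-like cells to 410 and in macrophage-like cells to 421 with no upper limit and 345 at resolution 0.4, and in the erythrocyte cluster from 150 to 509 with no upper limit. The bulk groups held 2 libraries each, and the parts of depth and of replicate spread in the precision were not tested.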
